A study of Mus musculus with 8 samples.

Results

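The respiratory chain of lung endothelial cells was followed through 92 genes, out of 34899 in the deposited table. They were chosen by name, as symbols that start like those of the subunits of complexes I to IV and of ATP synthase (complex V), with a mean of at least 50 normalised counts over the libraries. The names matched 111 rows, of which 19 lay below that mean. Of the 92 genes, 11 are encoded by the mitochondrial DNA and 81 by nuclear DNA, and all 92 passed the filter of at least 10 normalised counts in no fewer than 4 libraries. The cells had been sorted by flow cytometry from the lungs of female C57BL6 mice as CD31-positive cells without CD45, the surface marker of leukocytes. HF and LF mice gave 4 libraries each. What the abbreviations stand for, and the age of the animals, is not stated in the labels used here, and the series title places the comparison in a study of obesity, neutrophil oxidants and metastasis. All 8 libraries shared strain and sex, and no transgene or further treatment is named in the labels.

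The respiratory chain sits in the inner mitochondrial membrane and passes electrons from NADH (complex I) and succinate (complex II) through ubiquinone to complex III, cytochrome c and complex IV, which reduces oxygen. Complexes I, III and IV pump protons, and complex V uses the gradient to make ATP. Complex II is built from nuclear genes alone, while the others combine nuclear-encoded subunits with a few core subunits transcribed and translated inside the organelle, so that both genomes have to supply parts. Endothelial cells are regarded as cells that make most of their ATP by glycolysis, with mitochondria that also serve biosynthesis and signalling.

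Libraries held 10631506 (LF 1) to 20781564 (HF 4) reads assigned to genes. Values are the authors' normalised read counts, and each fold is the ratio of HF to LF that limma estimated from log2(value + 1), with its 95% interval, n = 4 per group. Pecam1, which encodes CD31, had 28252 ± 1063 in HF and 25381 ± 6906 in LF. Ptprc, which encodes CD45, had 166 ± 72.8 in HF and 199 ± 59.0 in LF. Markers of other cells were measurable and mostly lower on average in HF: 10 of 11 genes of pericytes and smooth muscle, 8 of 8 of fibroblasts, 8 of 10 of alveolar epithelium, 5 of 5 of airway epithelium, 8 of 8 of leukocytes and 5 of 5 of erythrocytes, against 1 of 10 of endothelium. Of the cardiac muscle markers only 2 were tested, 1 higher and 1 lower. Among all genes tested, 7980 of 17067 had a lower mean in HF. Scgb3a2, a secreted protein of airway cells, had a fold of 0.419. Hbb-bs, a globin of red cells, and Lyz2, the lysozyme of myeloid cells, had folds of 0.751 and 0.695. Erg, an endothelial transcription factor, had a fold of 0.750 and was the 1 endothelial marker with a lower mean. Cdh5, among the 9 endothelial markers with a higher mean, had a fold of 1.18. Summed per library, the fibroblast markers stood at 2306 to 4772 in HF and 3388 to 6876 in LF, those of alveolar epithelium at 15403 to 22673 in HF and 17685 to 33190.2 in LF, of airway epithelium at 2915 to 4672 in HF and 4376 to 7448 in LF, of leukocytes at 3375 to 6047 in HF and 5962 to 7141 in LF, of erythrocytes at 21332 to 23997 in HF and 23686 to 43433 in LF and of cardiac muscle at 41.7 to 64.0 in HF and 48.8 to 97.3 in LF. On the first axis of a principal component analysis, which held 36.1% of the variance, LF 1 and LF 2 lay apart from the other 6 libraries. Results are therefore also given with either pair of LF libraries left out, LF 1 and 2 or LF 3 and 4.

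All 11 mitochondrially encoded members were lower on average in HF than in LF, with folds between 0.748 (mt-Co3) and 0.827 (mt-Nd2) and a median of 0.788. In 8 of them every HF library lay below every LF library, where 1.96% of all 17067 genes tested did so, and the same 8 had an unadjusted p under 0.05 by limma, against 4.67% of all genes in that direction. No member passed the threshold, since by limma 0% of all genes (0 of 17067) had a p under 0.05 after Benjamini-Hochberg adjustment, with 1085 higher and 797 lower at an unadjusted p under 0.05, while edgeR called 0 and DESeq2 called 313, both on recovered whole reads. The limma adjusted p of the 11 genes ran from 0.232 to 0.548. The 11 genes are read from transcripts of one small genome, so they are not independent of each other. Most markers of other cell types had lower HF means as well, with the sums given above, and their part in the lower mitochondrial transcripts was not tested. In RNA from sorted cells, fewer cells of a type and less RNA per cell cannot be told apart.

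Complex IV reduces oxygen at metal centres held by its mitochondrially encoded core. mt-Co1, the catalytic subunit with the haem and copper site, was at 21184, 22195, 17649.6 and 22299.9 in HF 1 to 4 and 25666, 26746, 30935 and 25206 in LF 1 to 4. The groups did not overlap, with HF 3 the lowest and LF 3 the highest, and the fold was 0.767 (0.611 to 0.963). mt-Co2, which receives electrons from cytochrome c, was at 373, 347, 368 and 303 in HF 1 to 4 and 598, 423, 439.6 and 388 in LF 1 to 4. Its values did not overlap either, LF 1 being far above the other LF libraries, and the fold was 0.762 (0.603 to 0.963). mt-Co3, the third core subunit, was at 794, 755, 734 and 638 in HF 1 to 4 and 1083, 893, 1059.8 and 874 in LF 1 to 4, with a fold of 0.748 (0.620 to 0.903), the lowest of the 11. HF 4 was the lowest library of both mt-Co2 and mt-Co3.

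In complex III, mt-Cytb encodes cytochrome b, the subunit where ubiquinol is oxidised. It was at 22754, 22768, 20468 and 22849 in HF 1 to 4 and 29091, 27290.5, 30298 and 25117 in LF 1 to 4, a fold of 0.796 (0.642 to 0.987). HF 1, HF 2 and HF 4 lay close together, HF 3 was lower, and LF 4 was the LF library nearest to HF. In complex V, mt-Atp6 encodes subunit a, which forms the path of protons. It was at 602, 587, 609 and 533 in HF 1 to 4 and 866, 733, 727 and 699 in LF 1 to 4, a fold of 0.772 (0.646 to 0.923), without overlap.

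Complex I has 7 mitochondrially encoded subunits in its membrane arm, of which 6 are members. mt-Nd1, at the junction with the matrix arm, was at 12522, 12719.9, 10578 and 12088 in HF 1 to 4 and 14356, 15339.8, 17115 and 14036 in LF 1 to 4, a fold of 0.788 (0.644 to 0.964). mt-Nd3 was at 213, 205, 175 and 201 in HF 1 to 4 and 261, 260.5, 295 and 235 in LF 1 to 4, a fold of 0.757 (0.608 to 0.942), and mt-Nd4 had a fold of 0.820 (0.676 to 0.995). In these 3 genes HF lay below LF in every library. The antiporter-like subunits mt-Nd2 and mt-Nd5 overlapped between groups, with LF 4 among the HF libraries. mt-Nd5 was at 7646, 6551, 6089.8 and 6880.1 in HF 1 to 4 and 10762, 8704, 8131 and 6282 in LF 1 to 4, a fold of 0.814 (0.637 to 1.04), and mt-Nd2 had a fold of 0.827 (0.677 to 1.01). mt-Nd6, the only member on the light-strand transcript, ranged from 1154 to 1397 in HF and 1073 to 2170.5 in LF, with LF 1 the highest and LF 4 the lowest of all 8 libraries, and a fold of 0.808 (0.617 to 1.06). mt-Nd6 overlaps mt-Nd5 by 14 exon bases on the other strand, and whether counting used the strand is not stated in the labels used here.

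**Figure D1:**
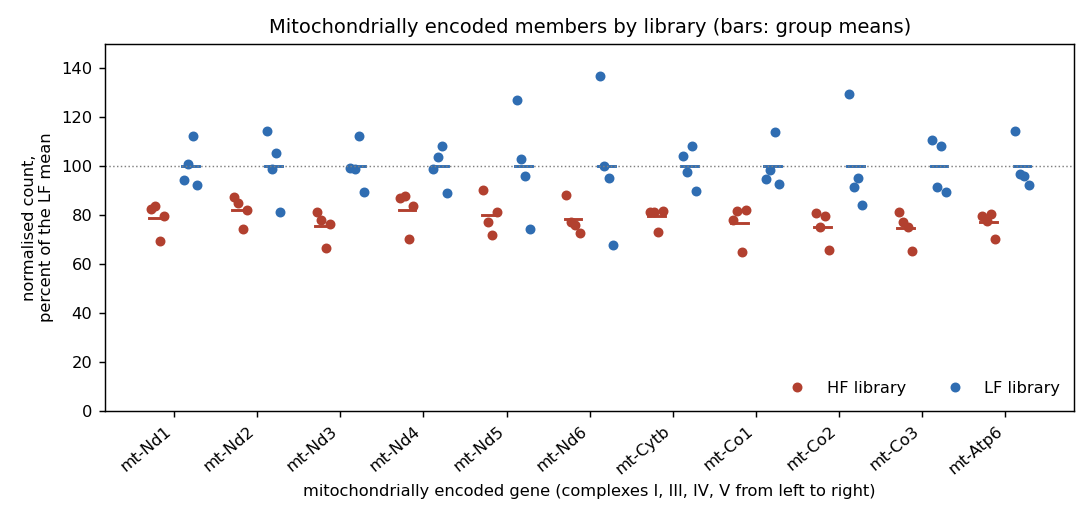
Normalised count of each mitochondrially encoded member in each library, as percent of the mean of the LF libraries of that gene, with bars at group means. HF and LF points do not overlap in 8 of the 11 genes, and overlap in mt-Nd2, mt-Nd5 and mt-Nd6.

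All 11 folds stayed below 1 in each of 20 other fits, which included 2 pseudocounts, 2 filters, 3 scalings, edgeR, DESeq2, the replicate block, each library left out and each pair of LF libraries left out. The 2 filters and the replicate block cannot change a fold here, so they could not have turned one. The median log2 fold change of the 11 genes was -0.34, -0.29 with LF 1 and LF 2 left out, and -0.40 with LF 3 and LF 4 left out. Calls did depend on the fit. DESeq2 called 3 members, all lower, where it called 0.504% of all genes lower: mt-Cytb at an adjusted p of 0.0430, mt-Co1 at 0.0458 and nuclear Cox4i2 at 0.0244. Without LF 3 and LF 4, limma called 7 of the 11, where 6.02% of all genes were called lower, and without LF 1 and LF 2 it called 0 of the 92 members, where 3.76% of all genes were called. In the authors' deposited table mt-Co3, mt-Cytb and mt-Co1 had log2 fold changes of -0.42, -0.33 and -0.38 with adjusted p of 0.0802, 0.0849 and 0.0932.

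Per kb of exon, the scale on which genes can be compared, the mitochondrially encoded members spanned a wide range. mt-Cytb stood highest at 21923 normalised counts per kb over all libraries, followed by mt-Co1 at 15524 and mt-Nd1 at 14205. mt-Nd2, mt-Nd4 and mt-Nd5 lay at 5808, 5613 and 4184, and mt-Nd6 at 2724. The lowest were mt-Co3, mt-Atp6, mt-Nd3 and mt-Co2 at 1089, 983, 663 and 592. Those 4 genes are among the 6 members that have a near-identical copy in the nuclear genome (at least 97% identity over at least 100 bases, GENCODE M21 on GRCm38), so their level is uncertain. The levels of mt-Co1 and mt-Nd4 carry the same limit. Over all libraries the copies of mt-Co1, Gm13340 and Gm29216, stood at 628 and 519 beside 23985. Gm28439, the copy of mt-Nd4, stood at 294 beside 7735. Gm28661, the copy of mt-Co2, stood at 338 in HF and 455 in LF, beside 348 and 462 for mt-Co2 itself. Gm10925, the copy of mt-Atp6, stood at 592 and 788, beside 583 and 756, and Gm28437, the copy of mt-Co3, at 678 and 895, beside 729.9 and 978.

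The copies lie side by side on the minus strand of chromosome 1, and 1 further copy of mt-Co1 lies on chromosome 2. A pair of stretches is shown, since reads from identical stretches cannot be assigned to one of the loci. They come from the GENCODE M21 transcripts on GRCm38 and are written in the sense of the gene. Over the first 60 bases, mt-Nd3 (chrM:9459-9518, plus strand) and Gm28438 (chr1:24613060-24613119, minus strand) differ by T3C, counted from the first base of the transcript, where capitals mark the differing base. Bases 301 to 360 of mt-Co2 (chrM:7313-7372) and of Gm28661 (chr1:24615206-24615265, minus strand) are the same letter for letter.
mt-Nd3: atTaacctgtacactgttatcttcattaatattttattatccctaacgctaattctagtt
Gm28438: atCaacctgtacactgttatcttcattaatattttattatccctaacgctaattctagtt
mt-Co2: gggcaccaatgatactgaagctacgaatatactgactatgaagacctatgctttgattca
Gm28661: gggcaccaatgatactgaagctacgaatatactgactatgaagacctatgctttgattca

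The summed copies were at 3004, 2829.6, 3148 and 2508 in HF 1 to 4 and 5355, 3422, 3672 and 3086 in LF 1 to 4, with overlap, and LF 1 was the highest. With the copies added to their mitochondrial gene, the median log2 fold change of the 11 members stayed at -0.34. That median falls on mt-Nd1, which has no such copy, so it says little about the effect of the copies. None of the 11 changed sign with the copies added. The 5 members without such a copy (mt-Nd1, mt-Nd2, mt-Nd5, mt-Nd6 and mt-Cytb) summed to 50102, 48886, 43251 and 48411 in HF 1 to 4 and 63938, 59469, 64034 and 51890.3 in LF 1 to 4, with every HF library below every LF library.

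Transcripts of the mitochondrial DNA outside the 11 members had lower HF means too. mt-Rnr2, the large ribosomal RNA of the organelle, was at 23845, 25147, 24483 and 24806 in HF 1 to 4 and 36632, 30163, 37674 and 28383 in LF 1 to 4, a fold of 0.745 (0.590 to 0.941) without overlap. mt-Rnr1, the small ribosomal RNA, had a fold of 0.779 (0.639 to 0.949), and its HF 2 lay marginally above LF 4. The protein genes mt-Atp8 and mt-Nd4l fell short of the mean of 50 counts. mt-Atp8, a membrane subunit of ATP synthase, was at 47.8, 39.1, 33.0 and 32.3 in HF 1 to 4 and 67.1, 51.7, 46.2 and 32.8 in LF 1 to 4, and mt-Nd4l, a small subunit of complex I, at 21.3, 22.2, 16.5 and 15.0 in HF 1 to 4 and 25.6, 26.8, 21.1 and 17.0 in LF 1 to 4, both with overlap. Of the 17 genes of the mitochondrial chromosome that were tested, the 11 members included, 16 had a lower mean in HF, the exception being the transfer RNA mt-Tm. The 9 that lay lower without overlap were the 8 members given above and mt-Rnr2, where 1.96% of all genes tested did so.

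The nuclear-encoded members lay close to the median of all genes. Of 81, 60 had a higher and 21 a lower mean in HF, and their log2 fold changes had a median of 0.0654 beside 0.0235 for all genes tested, and 0 lay higher without overlap, where 3.47% of all genes did. An unadjusted p under 0.05 was reached by 0 in the higher direction, against 6.36% of all genes, and by 2 of the 81 in the lower direction, against 4.67% of all genes. The sign of the nuclear median turned under 2 of the 3 other scalings, to -0.0411 with quantile normalisation and to -0.0381 with libraries scaled to genes that are not mitochondrially encoded, which lowers the median of all genes by 0.10 on the log2 scale. The medians of complexes I, III, IV and V turned under the same 2 scalings, and that of complex II stayed at 0.0815 and 0.0905. Without LF 2 alone the nuclear median was -0.0438 and those of complexes I, IV and V were negative as well, at -0.0438, -0.0597 and -0.0451.

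Complex II, succinate dehydrogenase, is the complex with no mitochondrially encoded part. Its 4 subunits had the highest median log2 fold change of the 5 complexes, 0.19, and all 4 means were higher in HF. Sdha, the flavoprotein that oxidises succinate, was at 5609, 6799, 5653 and 6515 in HF 1 to 4 and 3871, 4956, 6194 and 6948 in LF 1 to 4, a fold of 1.14 (0.879 to 1.48). Sdhb, the iron-sulphur subunit, was at 2833, 3411, 2823 and 3166 in HF 1 to 4 and 2059, 2283, 3696 and 3394 in LF 1 to 4, a fold of 1.10 (0.837 to 1.45). Both genes were low in LF 1 and LF 2, while LF 3 and LF 4 lay among or above the HF libraries. The membrane anchors Sdhc and Sdhd, where ubiquinone is reduced, had folds of 1.15 (0.929 to 1.41) and 1.17 (0.896 to 1.52) and were likewise lowest in LF 1 and LF 2. The limma adjusted p of the 4 genes ran from 0.611 to 0.776. The median became -0.11 once LF 1 and LF 2 were left out, and 0.49 once LF 3 and LF 4 were.

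Among the 37 nuclear members counted with complex I, 27 means were higher in HF, with folds between 0.897 and 1.18 and limma adjusted p of 0.548 or more. Ndufv1, which holds the flavin that takes electrons from NADH, was at 2003, 2252, 1998 and 2155 in HF 1 to 4 and 1441, 1601, 2004 and 2170.1 in LF 1 to 4, a fold of 1.18 (0.955 to 1.46). Again LF 1 and LF 2 were the lowest libraries and LF 4 lay above 3 of the HF libraries. Ndufs3 and Ndufs7, core subunits of the arm that leads electrons to ubiquinone, and Ndufa8, an accessory subunit, had folds of 1.12, 1.12 and 1.12. Ndufa1, a small membrane subunit with the highest level per kb in complex I (2685), had a fold of 0.970 (0.797 to 1.18).

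In complex III, 6 of 9 nuclear means were higher in HF, and the median log2 fold change was 0.0886. Cyc1, the cytochrome that hands electrons to cytochrome c, was at 1836, 2083, 1794 and 2038 in HF 1 to 4 and 1370.1, 1457, 1731 and 2005 in LF 1 to 4. Its fold of 1.19 (0.972 to 1.46) was the highest of the nuclear members, at a limma adjusted p of 0.518. The core proteins Uqcrc1 and Uqcrc2 had folds of 1.19 and 1.18, and Uqcrfs1, the Rieske iron-sulphur protein, of 1.08. Uqcr11, a small subunit with the highest level per kb in complex III, had a fold of 0.978. In complex V, 13 of 17 means were higher, with a median of 0.0609. Atp5b, the catalytic beta subunit of ATP synthase and the highest of complex V per kb (2457), was at 9953, 11533, 10102 and 12170.5 in HF 1 to 4 and 7342, 8403, 11710.5 and 12079 in LF 1 to 4, a fold of 1.13 (0.866 to 1.47). Atp5a1 (alpha), Atp5c1 (gamma) and Atp5j (a stalk subunit) had folds of 1.12, 1.12 and 1.08. None of these genes separated the groups.

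**Figure D2:**
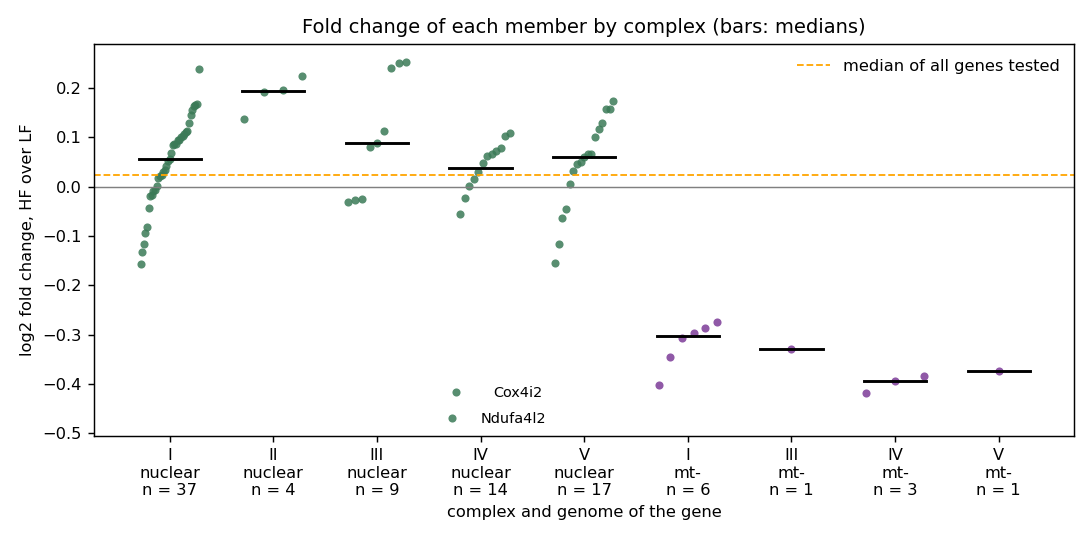
Log2 fold change of HF over LF for each member, by complex and genome, with bars at medians and a dashed line at the median of all genes tested. Nuclear members lie around the dashed line except Cox4i2 and Ndufa4l2, and the mitochondrially encoded (mt-) members all lie below 0.

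Of the 81 nuclear members 2 stood lower in HF without overlap, near the share of all genes that did (1.96%). Both have a restricted expression and were counted with complex IV, but only Cox4i2 was counted as a subunit. Cox4i2 (ENSMUSG00000009876, GRCm38 chromosome 2, 152754173 to 152765037), the alternative form of subunit 4 known from lung and from low oxygen, was at 499, 510.1, 494 and 449 in HF 1 to 4 and 683, 692, 608 and 622 in LF 1 to 4. The groups were well apart, and the fold was 0.750 (0.631 to 0.892), at a limma adjusted p of 0.209. Ndufa4l2 (ENSMUSG00000040280, chromosome 10, 127514967 to 127517154), a target of hypoxia-inducible factors that resembles the complex IV subunit Ndufa4, was at 267, 268, 279 and 217 in HF 1 to 4 and 381, 423, 291 and 340.4 in LF 1 to 4. HF 3 and LF 3 nearly touched, and the fold was 0.723 (0.571 to 0.915), at a limma adjusted p of 0.298. Its exons overlap those of Shmt2 by 32 bases on the other strand. In the authors' deposited table Cox4i2 had a log2 fold change of -0.42 at an adjusted p of 0.0407 and was the 1 member called there, where 0.458% of all genes were called lower.

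Both genes are known as markers of mural cells, and other mural cell transcripts had lower HF means too. The 11 pericyte and smooth muscle markers summed to 3362, 2982, 3028 and 2885 in HF 1 to 4 and 3959, 5331, 3410.4 and 4468 in LF 1 to 4. Every HF library lay below every LF library, though HF 1 and LF 3 nearly touched. A lower mean was found in 10 of 11, where 7980 of 17067 genes had one. By limma, 6 of 11 were lower at an unadjusted p under 0.05, where 4.67% of all genes were. Pdgfrb, the receptor that defines pericytes, had a fold of 0.662 (0.510 to 0.858), Notch3, a receptor of mural cells, of 0.662, and Trpc6, a cation channel of smooth muscle, of 0.730. The part of mural cell RNA in the lower Cox4i2 and Ndufa4l2 was not tested.

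**Figure D3:**
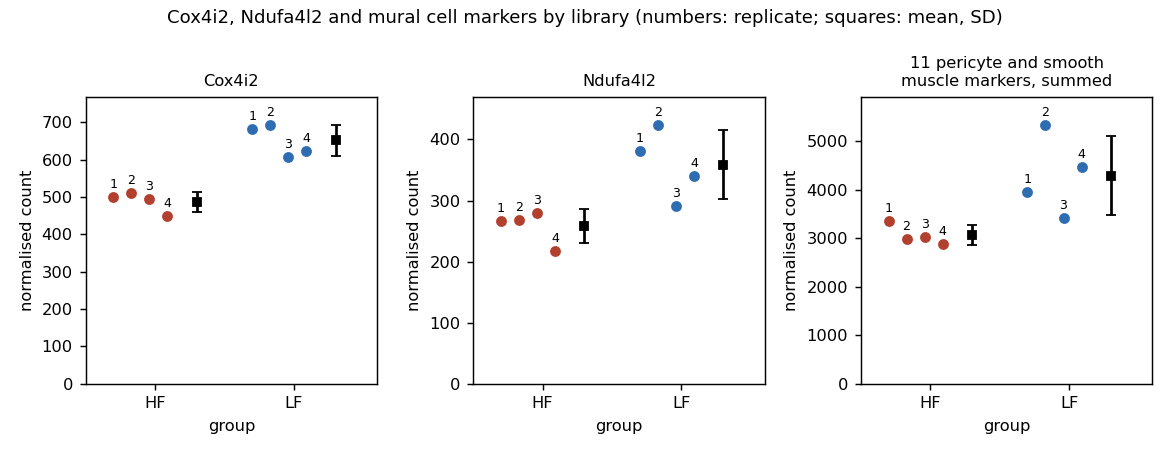
Normalised counts of Cox4i2, Ndufa4l2 and 11 summed pericyte and smooth muscle markers in each library, with replicate numbers and the mean and SD of each group (n = 4) at the side. HF lies below LF in all 3 panels without overlap.

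The common isoforms did not separate the groups. Cox4i1, the main form of subunit 4, was at 3445 ± 238 in HF and 3366 ± 606 in LF, for a fold of 1.03 (0.839 to 1.27), and Ndufa4 at 2432 ± 85.7 in HF and 2292 ± 494 in LF, for a fold of 1.08 (0.866 to 1.34). Per kb of exon, the level of Cox4i2 in percent of that of Cox4i1 was 24.5 to 31.7 in HF and 28.8 to 49.7 in LF, and that of Ndufa4l2 in percent of Ndufa4 was 11.7 to 14.6 in HF and 12.5 to 29.2 in LF. In both ratios LF 3 fell among the HF libraries, and LF 1 and LF 2 were the highest. Cox5b, a zinc-binding subunit, had a fold of 1.07, and Cox6a1, the complex IV member with the highest level per kb (4975), of 1.04. Cox7a2 and Cox8a, the widely expressed forms of their subunits, had folds of 1.01 and 1.001, whose sign turned under other scalings. Their muscle forms Cox6a2, Cox7a1 and Cox8b lay below the mean of 50 counts.

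Not every name that matched stands for a subunit, and Ndufa4l2, given above, was not counted as one. Cox7a2l, which links complexes III and IV in supercomplexes, had a fold of 0.985 (0.808 to 1.20), and Ndufs5-ps, a pseudogene of complex I subunit Ndufs5, was at 126 ± 10.3 in HF and 142 ± 21.6 in LF. Conversely Ndufab1, the acyl carrier protein of complex I, does not match the name rule, and had a fold of 0.983 (0.822 to 1.17). The members nearest above the mean of 50 were Ndufs5-ps, mt-Nd3 and Ndufa4l2 at 134, 231 and 308, and the names nearest below were mt-Atp8, the pseudogenes Atp5l2-ps and Atp5pb-ps, and Cox6b2 at 43.7, 36.3, 34.8 and 29.1. Of the 19 names below, 12 are pseudogenes. Annotated pseudogenes match 20 nuclear members at 97% identity or more, and in 2 of them, Atp5g1 and Ndufs5, a copy reached 10% of the mean of the member, so that these are uncertain. Exons of 38 members overlap those of another gene, 30 of them on the other strand.

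Set against each other, the 2 genomes gave different pictures. The 11 mitochondrially encoded members summed to 80641, 80433, 68743 and 79501 in HF 1 to 4 and 100797, 97352, 106694 and 86852 in LF 1 to 4, with every HF library below every LF library and a ratio of group means of 0.790. The 81 nuclear members summed to 130250.0, 144905, 138425 and 141029 in HF 1 to 4 and 116008, 110245, 158031 and 144586 in LF 1 to 4, with overlap and a ratio of 1.05. The log2 ratio of the mitochondrial to the nuclear sum was -0.69, -0.85, -1.01 and -0.83 in HF 1 to 4 and -0.20, -0.18, -0.57 and -0.74 in LF 1 to 4. HF 1 lay above LF 4, so the groups overlapped in 1 pair of libraries. The group means differed by -0.42, by -0.19 with LF 1 and LF 2 left out, and by -0.65 with LF 3 and LF 4 left out.

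Within single complexes the mitochondrial sum was also lower relative to the nuclear sum. In complex IV the log2 ratio ranged from -0.45 to -0.0275 in HF and from 0.11 to 0.48 in LF, and in complex III, where mt-Cytb stands for the mitochondrial genome, from 0.36 to 0.56 and from 0.56 to 1.17. In complex V, with mt-Atp6, the means differed by -0.47, again without overlap. The nuclear copy of mt-Atp6, Gm10925, stood at 592 in HF and 788 in LF, about as high as mt-Atp6 itself. The complex V ratio leaves this copy out and is therefore uncertain. The groups all but touched in complexes III and V. HF 1 stood at 0.5608 and LF 4 at 0.5617 in complex III, and HF 1 at -5.948 and LF 3 at -5.935 in complex V. In complex I the ratio ranged from -0.66 to -0.30 in HF and from -0.45 to 0.18 in LF, with LF 3 and LF 4 below HF 1. These sums are dominated by their most abundant genes, and they received no test, since the members form a list.

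**Figure D4:**
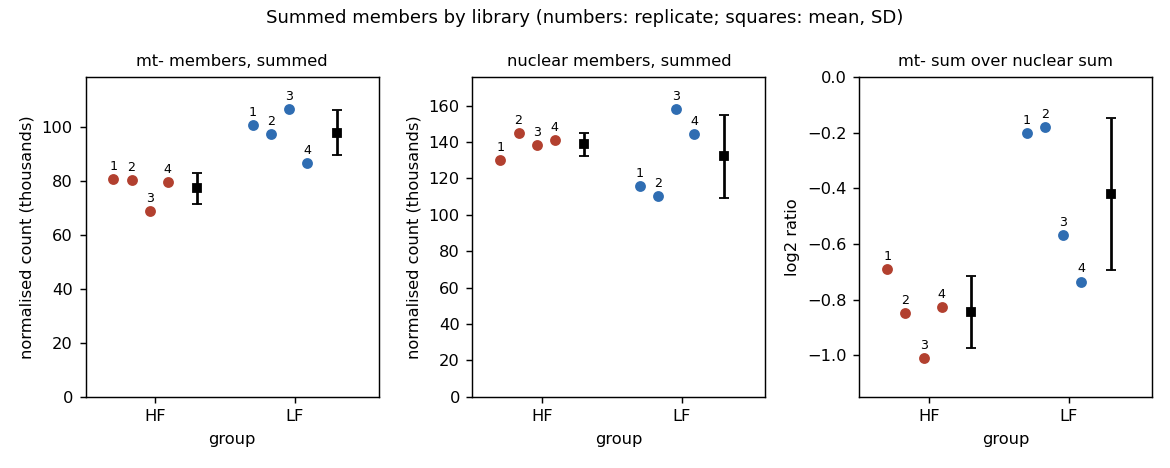
Summed normalised counts of the 11 mitochondrially encoded (mt-) and the 81 nuclear members, and the log2 ratio of the 2 sums, in each library with its replicate number, with group mean and SD (n = 4). The mt- sums of HF all lie below those of LF, while the nuclear sums overlap and LF 1 and LF 2 are the lowest.

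The nuclear members differed within LF. In 60 of 81 nuclear members (74.1%) LF 1 and LF 2 both lay below LF 3 and LF 4, where 32.3% of all genes tested did, and the median ratio of the first pair to the second was 0.762. The count was 29 of 37 in complex I, 4 of 4 in complex II, 8 of 9 in complex III, 8 of 14 in complex IV and 11 of 17 in complex V. Among the mitochondrially encoded members it was 0 of 11, with a median ratio of 1.03. The lowest ratios belonged to Ndufs8, Atp5pb and Ndufv2, at 0.551, 0.585 and 0.594, and Cox4i2 and Ndufa4l2 went the other way, at 1.12 and 1.27. Those 3 lowest genes were picked after their values were seen, as was the split of the LF libraries, which the labels do not give.

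In 14 of 81 nuclear members (17.3%) every HF library lay above LF 1 and LF 2 and below LF 3 and LF 4, where 3.92% of all genes did. The median deviation of the nuclear members from their own means was -0.14 and -0.29 (log2) in LF 1 and LF 2, -0.0542 to 0.0697 in HF and 0.0766 to 0.25 in LF 4 and LF 3. Without LF 3 and LF 4, limma called 28 nuclear members higher in HF, where 14.0% of all genes were called higher, and 2 lower. The 28 comprised 12 of complex I, 4 of complex II, 5 of complex III, 2 of complex IV and 5 of complex V, and the 2 lower were Cox4i2 and Ndufa4l2. Without LF 1 and LF 2 the nuclear median turned to -0.13 and limma called 0. The endothelial markers were lowest in the same libraries, with sums of 120736 and 135953 in LF 1 and LF 2, 172579 and 200812 in LF 3 and LF 4 and 165983 to 187466 in HF, and their part in the nuclear members was not tested.

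**Figure D5:**
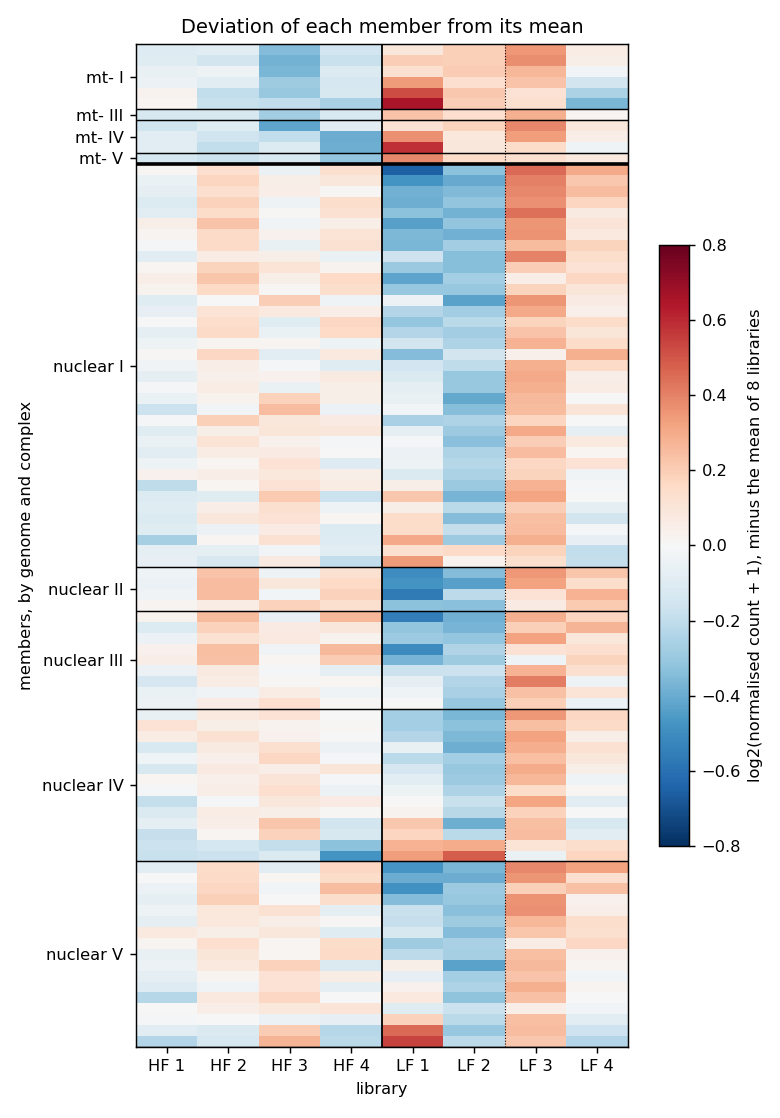
Deviation of each of the 92 members from its mean over 8 libraries, on the log2(normalised count + 1) scale, by library and by genome and complex. The mt- rows are below 0 in the HF libraries except mt-Nd5 and mt-Nd6 in HF 1, and most nuclear rows are low in LF 1 and LF 2 and high in LF 3.

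Nuclear respiratory genes are known to be under the control of NRF1, of GABPA of the ETS family and of the oestrogen-related receptors, and their promoters were searched for the core motifs of these factors. RefSeq promoters (GRCm38.p6, 250 bases before to 50 after the start site) were matched for 64 of the 81 nuclear members, with a median GC content of 58.3%, against 52.7% in all 27025 genes with a promoter there and 60% in the 11118 of them that were tested. The NRF1 core, GCGC and TGCGC with 1 base between on either strand, was found in 17 of 64 members (26.6%), against 5.19% of all genes and 10.6% of those tested. The ETS core CCGGAAG was found in 17 (26.6%), against 9.93% and 18.9%. The ERR element TCAAGGTCA was found in 2, against 0.466% and 0.315%, and the CCAAT box GATTGGCT, bound by NF-Y, in 2, against 4.40% and 6.20%. A match of letters is a description and was not tested.

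The NRF1 core was matched in 7 members of complex I, 2 of complex II, 1 of complex III, 1 of complex IV and 6 of complex V. The following 60-base stretches show it, in capitals, in the member with the smallest p of each complex that has a match before the start site: Ndufa8 (chr2:36049339-36049398, minus strand), Sdhd (chr9:50603894-50603953, minus strand), Cox6a1 (chr5:115349041-115349100, minus strand) and Atp5c1 (chr2:10080433-10080492, minus strand), all on GRCm38.p6, from RefSeq.
Ndufa8: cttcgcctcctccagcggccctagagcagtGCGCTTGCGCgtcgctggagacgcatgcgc
Sdhd: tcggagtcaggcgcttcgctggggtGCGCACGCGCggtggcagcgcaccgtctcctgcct
Cox6a1: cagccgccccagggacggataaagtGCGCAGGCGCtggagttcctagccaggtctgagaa
Atp5c1: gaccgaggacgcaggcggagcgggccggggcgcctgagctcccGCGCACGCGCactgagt
The 4 genes had folds of 1.12, 1.17, 1.04 and 1.12 and their values in LF 1 and LF 2 were 0.720, 0.620, 0.855 and 0.641 times those in LF 3 and LF 4.

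Genes that build and feed the chain were taken from further lists, in which limma called 0 genes. Assembly factors had a higher mean in HF in 10 of 14 for complex I, 4 of 4 for complex II, 4 of 6 for complex III, 13 of 20 for complex IV and 4 of 4 for complex V. Without LF 1 and LF 2 these counts were 6, 1, 3, 5 and 0, and with libraries scaled to genes not mitochondrially encoded 9, 3, 2, 9 and 2. Ndufaf6, needed to assemble complex I, had a fold of 1.26 (0.967 to 1.63), and Ttc19, which clears fragments of the Rieske protein from complex III, of 1.34 (1 to 1.81). Among 15 genes of ubiquinone synthesis, cytochrome c and the electron transfer flavoproteins, 11 had a higher mean and the median log2 fold change was 0.17, with 9 higher under that scaling and 8 without LF 1 and LF 2 (median 0.0306). Coq2, which attaches the side chain of ubiquinone, was at 700.1, 878, 1003 and 1104 in HF 1 to 4 and 744, 735, 453 and 342 in LF 1 to 4, a fold of 1.68 (1.17 to 2.41) and a limma adjusted p of 0.271. Etfdh, which passes electrons from fatty acid oxidation to ubiquinone, was at 1204, 1425, 1191 and 1293 in HF 1 to 4 and 864, 796, 1120.1 and 1084 in LF 1 to 4, a fold of 1.33 (1.09 to 1.64) without overlap, at a limma adjusted p of 0.289.

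All 16 tested genes of the tricarboxylic acid cycle, which supplies NADH and succinate, had a higher mean in HF, and their median log2 fold change was 0.15. The count was 12 with libraries scaled to genes not mitochondrially encoded, 11 with quantile normalisation and 4 without LF 1 and LF 2. Suclg2, a subunit of succinyl-CoA ligase, was at 924, 974, 858 and 956 in HF 1 to 4 and 736, 799.9, 856 and 806 in LF 1 to 4, a fold of 1.16 (0.985 to 1.37) without overlap, and Fh1, fumarate hydratase, had a fold of 1.24 (0.974 to 1.57). The summed list was 20959 and 23479 in LF 1 and LF 2 and 29286 and 31372 in LF 3 and LF 4, against 26749 to 31205 in HF. It was thus lowest in LF 1 and LF 2, as were most nuclear members.

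Genes that replicate, transcribe and process the mitochondrial DNA had a higher mean in HF in 21 of 27, with a median log2 fold change of 0.13. The count was 17 with the scaling to genes not mitochondrially encoded (median 0.0257), 16 without LF 1 alone (median 0.0724) and 14 without LF 1 and LF 2 (median 0.0185). Mterf4, which serves mitochondrial ribosome assembly, was at 247 ± 18.6 in HF and 187 ± 29.5 in LF, for a fold of 1.33 (1.04 to 1.70), and Trmt10c, a subunit of the nuclease that cuts transfer RNAs out of the primary transcript, at 529.9 ± 43.7 in HF and 426 ± 32.4 in LF, for a fold of 1.24 (1.03 to 1.50). Both were higher in every HF library than in every LF library, with limma adjusted p of 0.378 and 0.379. Regulators of mitochondrial biogenesis were divided, with 6 of 11 means higher and 4 of 11 with either of the scalings that turned the nuclear median. Ppargc1a, the coactivator PGC-1alpha, was at 76.8 ± 11.3 in HF and 113 ± 33.5 in LF, for a fold of 0.704 (0.487 to 1.02) with overlap.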

How the data were processed

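RNA of sorted lung endothelial cells from 4 HF and 4 LF libraries was extracted with TRIzol LS and made into SMART-Seq libraries, per the labels' protocols. DESeq2 1.24.0, STAR 2.6.1b and featureCounts 2.0.0 are named in the submitters' processing notes. The genome build, the annotation and the use of strand are not stated in the labels used here. The values are signal, read counts per gene that the authors divided by a size factor of each library, per the file headers. The deposited table also holds the authors' log2 fold changes with standard errors, their test statistic (a score), and their p-values and adjusted p-values.

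Each of the 34899 gene IDs was found in GENCODE M21 (GRCm38), the source of coordinates, exon lengths and 24 symbols that had been stored as dates. Size factors of 0.820 to 1.27 turned 100% of the values in each of the 8 libraries into whole reads within 0.01 read, 10631506 to 20781564 per library. The recovered reads served edgeR and DESeq2 only. No pair of libraries in a group agreed within sampling noise. Nothing in the labels says whether libraries of a group came from separate mice or pools, so p-values measure the spread between these libraries.

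Normalised counts were tested as log2(value + 1) with limma 3.58.1 (R 4.3.3, moderated, with a mean-variance trend, two-sided) over 17067 genes with at least 10 in at least 4 libraries, at a Benjamini-Hochberg adjusted p under 0.05 over all of them, with no covariates. Medians, counts and sums over members received no test. Alternatives were pseudocounts of 0.5 and 5, 2 other filters, 3 other scalings, edgeR 4.0.16, DESeq2 1.42.0, the replicate number as a block, an adjusted p under 0.10, and libraries left out. The procedure was tested on simulated data. Named genes were the mitochondrially encoded protein genes, all of complex II, up to 4 nuclear members by unadjusted p and the 1 with the highest level per kb in the other complexes, isoform pairs, members at the edge of the rule or not subunits, and up to 3 genes by unadjusted p in each further list, some of which are counted but not named. The ribosomal RNAs and mt-Tm, the copies, and the promoters shown are outside this rule. The members and lists were chosen with earlier results of these data known. Near-identical copies were sought among GENCODE M21 transcripts with blastn (at least 97% identity over at least 100 bases), and only pseudogenes were kept.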

Additional observations from a re-analysis of the deposited data

Results flagged for a closer look

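In groups of 4 libraries, a library was listed when its gap to the nearest other, divided by the range of the group, exceeded the Dixon critical value for 4 samples at the 95% level. Chance lists about 1 in 20 groups, and 4 of 170 were listed here. HF 3 stood low in mt-Cytb at 20468, against 22754 to 22849 normalised counts in the other HF libraries. It stood low in the sum of the mitochondrially encoded members at 68743, against 79501 to 80641, and in the log2 ratio of mitochondrial to nuclear complex IV members at -0.45, against -0.10 to -0.0275. These 3 values share genes. Without HF 3 the median log2 fold change of the mitochondrially encoded members was -0.29. HF 2 stood high in Ndufaf6, an assembly factor of complex I, at 413, against 333 to 341 normalised counts.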

How the results depend on the processing

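The 11 mitochondrially encoded members stayed lower in HF in each of 20 other fits, of which the 2 filters and the replicate block cannot change a fold. Their medians were -0.42 to -0.29 when 1 library was left out. With the values of annotated nuclear copies added to them (an alternative chosen after seeing the data), the median was -0.34. It falls on mt-Nd1, which has no such copy, and so could hardly move. The difference in the log2 ratio of mitochondrial to nuclear sums was -0.53 to -0.34 with 1 library left out, -0.19 with LF 1 and LF 2 left out, -0.65 with LF 3 and LF 4 left out, -0.39 from means of log2 values, -0.43 over subunits alone and -0.41 over members without a nuclear copy. Medians of nuclear members depended on the LF libraries. Without LF 1 and LF 2 they were -0.14, -0.11, -0.16, -0.13 and -0.12 in complexes I to V and -0.13 together, and without LF 3 and LF 4 0.24, 0.49, 0.34, 0.20 and 0.25 and 0.24. With 1 library left out they were -0.0438 to 0.15 in complex I, 0.0691 to 0.30 in II, 0.000921 to 0.20 in III, -0.0597 to 0.12 in IV, -0.0451 to 0.15 in V and -0.0438 to 0.15 together.

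Of all genes, 1 passed without a filter on low values, 313 with DESeq2, 641 with LF 1 and LF 2 left out, 3421 with LF 3 and LF 4 left out, and 0 to 1 with 1 library left out (1 without LF 2 and 1 without LF 4). Of the members, 3 passed with DESeq2, 37 without LF 3 and LF 4 and 0 with 1 library left out (range 0 to 0). With libraries scaled to genes that are not mitochondrially encoded, the genes at an unadjusted p under 0.05 split into 580 higher and 1039 lower. The cause of these changes was not tested.

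Sign changes were not confined to genes near no difference, and 0 of 63 named genes had a call to lose. Uqcrc2 and Sdhd, with log2 fold changes of 0.241 and 0.225 over all libraries, turned without LF 1 and LF 2. Cyc1, at 0.253, kept its sign there. The sign turned without LF 1 and LF 2 in Atp5a1 (-0.0347), Atp5b (-0.13), Atp5c1 (-0.16), Cox4i1 (-0.15), Cox5b (-0.15), Cox6a1 (-0.0515), Cox7a2 (-0.20), Cox8a (-0.0948), Ndufa4 (-0.13), Ndufa8 (-0.0726), Ndufs3 (-0.00142), Ndufs7 (-0.0565), Pecam1 (-0.14), Sdha (-0.10), Sdhb (-0.22), Sdhc (-0.0366), Sdhd (-0.12), Uqcrc2 (-0.11) and Uqcrfs1 (-0.17), and without LF 3 and LF 4 in Cox7a2l (0.0790), Ndufa1 (0.15), Ndufab1 (0.11) and Uqcr11 (0.15). It turned with quantile normalisation in Atp5j (-0.00841), Cox4i1 (-0.0739), Cox6a1 (-0.0723), Cox7a2 (-0.0898) and Cox8a (-0.11), with scaling to genes not mitochondrially encoded in Cox4i1 (-0.0558), Cox5b (-0.000446), Cox6a1 (-0.0414), Cox7a2 (-0.0871) and Cox8a (-0.10), with TMM rescaling in Cox7a2 (-0.00181) and Cox8a (-0.0170), with edgeR in Cox7a2 (-0.0164) and Cox8a (-0.0212) and with DESeq2 in Cox7a2 (-0.0204) and Cox8a (-0.0245). With 1 library left out it turned in Cox4i1 (-0.0452 to 0.15), Cox6a1 (-0.00955 to 0.12), Cox7a2 (-0.11 to 0.12), Cox7a2l (-0.0865 to 0.0784), Cox8a (-0.0731 to 0.0635), Ndufa1 (-0.12 to 0.0443), Ndufab1 (-0.0916 to 0.0317), Sdhb (-0.00527 to 0.28) and Uqcr11 (-0.0933 to 0.0553). Of the 63 genes, 6 passed with DESeq2, 3 with LF 1 and LF 2 left out and 39 with LF 3 and LF 4 left out. Of all 17067 genes tested, 313, 641 and 3421 passed in the same fits. Many of the 63 were named for a small unadjusted p in these data, so their counts are no result about them.

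The labels number libraries 1 to 4 in both groups without saying that a number marks shared animals or days. Deviations of same-numbered libraries correlated at 0.115, -0.222, -0.143 and 0.185, so the numbers were not taken as pairs. With the replicate number as a block, 0 genes passed. By limma 1810 of 17067 had an unadjusted p under 0.05, 954 higher and 856 lower. Of the 92 members, 6 were among the lower, near the share of all genes, and 0 among the higher. The block cannot change a fold when each number occurs once per group, so the median of the mitochondrially encoded members stayed at -0.34. Low counts limit what mt-Atp8 and mt-Nd4l can show, since both had under 70 normalised counts in each library.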
